A study of Oryza sativa with 2 samples.

Results

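The 5 rice genes described here move or split sugar on its way into the filling grain: the sugar transporter genes SWEET4, SWEET11 and SWEET14, the sucrose transporter gene SUT1 and the cell wall invertase gene GIF1. They were found by symbol or synonym in the rice gene table, each name gave 1 gene, and they are 5 of 17905 genes that the array reads through a probe set listed for a single gene. A probe set is a group of short probes against transcript sequence, read together as 1 signal. SWEET14 had 2 such probe sets and the other genes 1 each, which makes 6 probe sets, and none of the genes appeared in a probe set listed for several genes. Signal was measured in young endosperm of the japonica cultivar Zhonghua11, with no mutation, transgene or treatment given in the labels, hand-picked under a microscope 2 days after pollination and, per the series design, before cell walls form. Plants grew in a chamber at 28 °C during a 12 h day and at 22 °C during a night of the same length. There was 1 group of 2 samples with 1 Affymetrix rice array each, called array 1 and array 2, and no other tissue, stage or genotype. The labels do not say whether the samples came from separate plants or how many grains were pooled, so the spread between the arrays may be technical.

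Sugar reaches a rice grain as sucrose in the phloem of the maternal tissue, and no cytoplasmic bridges join that tissue to the endosperm, so sugar has to leave the maternal cells and be taken up again. SWEET proteins let sugar pass through a membrane down its gradient, SUT proteins carry sucrose into cells together with protons, and cell wall invertases split sucrose outside the cell into glucose and fructose. In rice, loss of SWEET4, SWEET11 or GIF1, and antisense suppression of SUT1, have each been reported to impair grain filling.

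The level of a gene is given as deposited, as a linear signal intensity per array, and then as log2 signal with its mean and SD (n = 2). The array carries 64 probe sets for reporter and transgene sequences that the plants should lack, and background was the 95th percentile of their signals, 52.7 on array 1 and 37.9 on array 2. The brightest of those reporter probe sets read 92.3 and 98.7. Probe affinity differs between probe sets, so the signals below do not rank the genes by transcript number. The 3′ to 5′ signal ratios of the rice control genes for actin, GAPDH and cyclophilin lay between 2.99 and 13.7, and any effect of this on single genes was not tested.

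SWEET11, SWEET4, SUT1 and GIF1 were above background on both arrays, and SWEET14 lay at its edge. Counted by probe set, 5 of the 6 were above background on both arrays, against 42.8% of 57194 rice probe sets and 70.9% of the 22436 listed for 1 gene. Counted by gene, through 1 probe set each, 4 of 5 were, against 74.1% of all genes read. The count is near the share over all genes, so it is not a result about these genes, and the account below turns on where each one lay in the signal distribution. These are bulk samples, in which fewer cells of a type and less RNA per cell cannot be told apart.

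SWEET11 (gene ID 4346153) on chromosome 8 encodes a sucrose transporter and is also listed under the synonyms Os8N3 and XA13, the latter from its role as a target of the bacterial blight pathogen. Its probe set read 11223 on array 1 and 13093 on array 2. Both signals were far above background, at 213 times its level on array 1 and 345 times on array 2. The log2 signal was 13.57 ± 0.16 (SD, n = 2), and 98.7% of rice probe sets on array 1 and 98.9% on array 2 were dimmer. Among genes read through 1 probe set each, 97.0% and 97.5% were dimmer. The suffix _s_at marks a probe set whose probes can match more than 1 transcript, so a share from related transcripts was not told apart here, although the annotation lists SWEET11 alone.

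SWEET4 (gene ID 4329093) on chromosome 2 encodes a transporter known to carry hexoses, the products of invertase. Its probe set read 2979 on array 1 and 2840 on array 2. The signals were 56.5 and 74.9 times the background of their arrays. This was the closest agreement between the arrays among the 6 probe sets, with a log2 signal of 11.51 ± 0.05 (SD, n = 2). Of all genes, 83.8% were dimmer on array 1 and 82.9% on array 2.

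SWEET14 (gene ID 4350572) on chromosome 11, listed also as Os11N3, is a close relative of SWEET11 and likewise a known target of the bacterial blight pathogen. Its first probe set, of the _at type, read 35.2 on array 1, which is below background, and 44.5 on array 2, which is above it. Of the 64 reporter probe sets, 9 were brighter than it on array 1 and 3 on array 2. The log2 signal was 5.31 ± 0.24 (SD, n = 2), a value that stands for a level near the limit of detection.

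The second SWEET14 probe set, of the _x_at type, read 63.1 on array 1 and 56.0 on array 2. These signals were 1.20 and 1.48 times background, so this probe set passed on both arrays, but it was 0.684 and 0.568 times the brightest reporter probe set. With that reporter as background, neither SWEET14 probe set was above it on either array. The suffix _x_at marks probes that can also bind unrelated sequences. Both probe sets are dim, and they place SWEET14 on different sides of background on array 1 only. Few genes were dimmer than SWEET14 in the first probe set, 19.2% on array 1 and 23.8% on array 2.

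**Figure D1:**
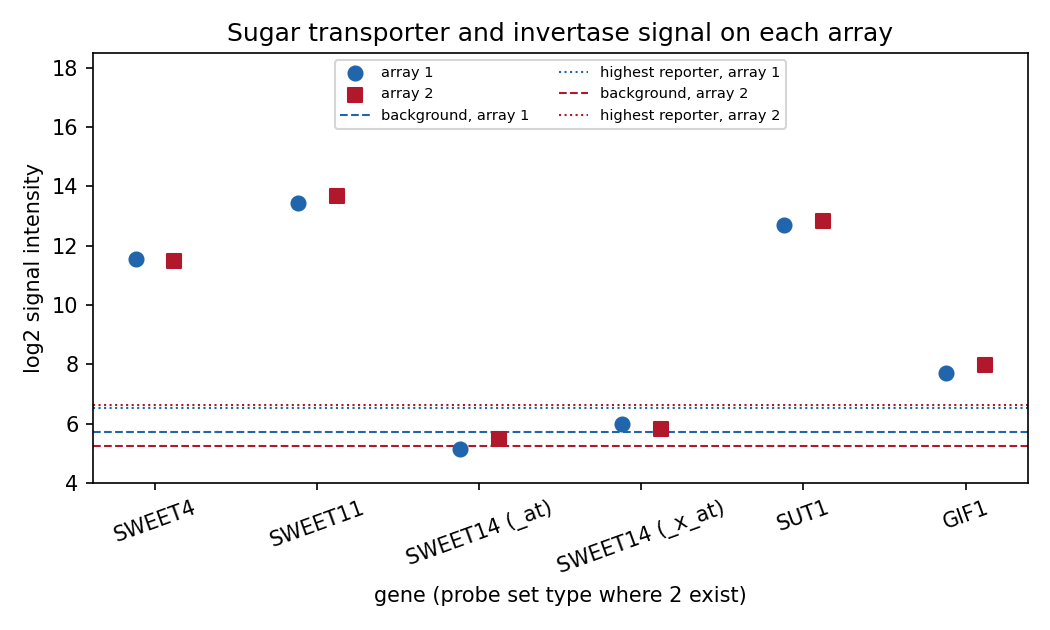
Log2 signal of the 6 probe sets on array 1 (circles) and array 2 (squares), with each array's background (dashed) and brightest reporter probe set (dotted). SWEET4, SWEET11, SUT1 and GIF1 lie above all 4 lines on both arrays, while the SWEET14 probe sets lie between 5.14 and 5.98, below the dotted lines.

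SUT1 (gene ID 4331775) on chromosome 3 encodes a sucrose and proton symporter, the type of carrier that loads sucrose into cells against its gradient. Its probe set read 6728 on array 1 and 7256 on array 2. The signals were 128 and 191 times background, and 93.6% and 93.9% of genes were dimmer. The log2 signal was 12.77 ± 0.08 (SD, n = 2). The gene has 2 RefSeq transcripts, as SWEET4 does, and this probe set does not give them separately.

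GIF1 (gene ID 4335790) on chromosome 4, named for the grain incomplete filling mutant and also listed as CIN2, encodes a cell wall invertase. Its probe set read 212 on array 1 and 255 on array 2. The signals were 4.02 and 6.71 times background and 2.30 and 2.58 times the brightest reporter, so GIF1 was detected on both arrays at a modest signal. The log2 signal was 7.86 ± 0.19 (SD, n = 2), below the median of 8.58 over all genes. On array 1 42.1% of genes were dimmer, and on array 2 44.6%.

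Set against all genes, the 5 split into 3 bright probe sets, 1 below the middle and 1 near background. The median of the 5 gene values was 11.51, that of SWEET4, beside 8.58 over the 17905 genes. No probe set of SWEET11, SUT1, SWEET4 or GIF1 had a reporter probe set brighter than it on either array.

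**Figure D2:**
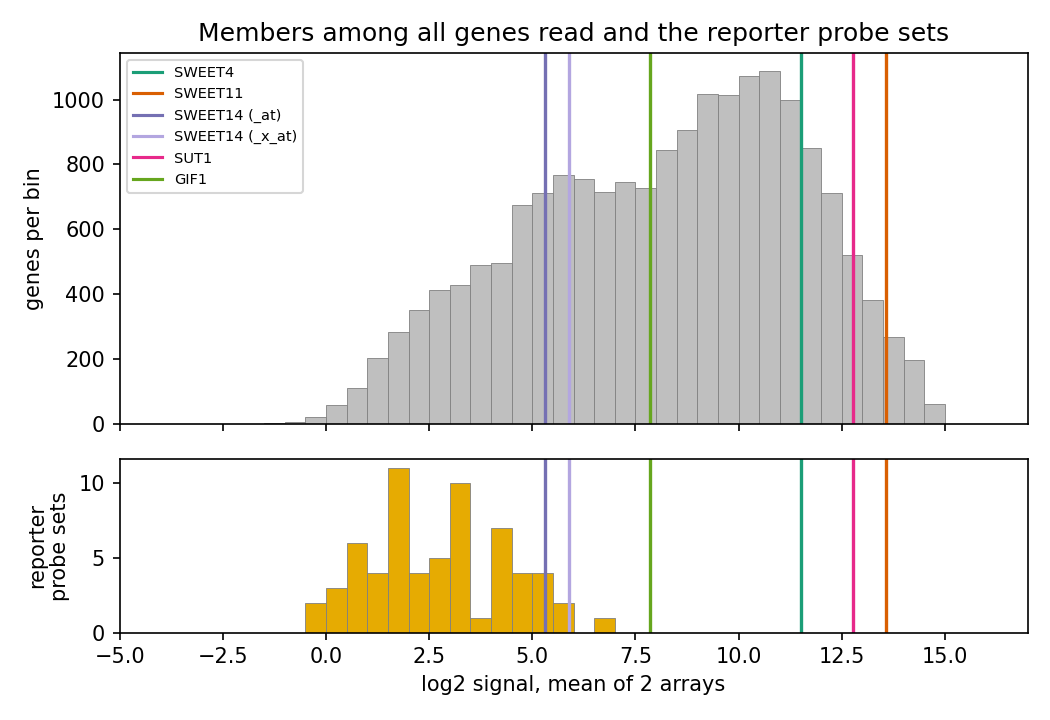
Distribution of mean log2 signal over the 17905 genes (upper panel, genes per bin of 0.5) and over the 64 reporter probe sets (lower panel), with a vertical line for each of the 6 probe sets. SWEET4, SUT1 and SWEET11 lie in the bright part of the gene distribution, GIF1 at 7.86 lies left of the median of 8.58, and both SWEET14 lines lie within the reporter range.

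None of the 6 probe sets differed by over 2-fold between the arrays. Among all rice probe sets that passed background on both arrays 1.72% did, and among those listed for 1 gene 0.899% did. With shares this low, finding none among 6 is not a result about these genes. Both shares leave out probe sets such as the first of SWEET14, which did not pass on array 1. The log2 difference, array 2 minus array 1, was 0.22 for SWEET11, 0.11 for SUT1, -0.07 for SWEET4 and 0.27 for GIF1. It was 0.34 for the first SWEET14 probe set, which is below background on array 1, and -0.17 for the second. After quantile normalization these became 0.65 and 0.0674, so SWEET14 has no settled direction between the arrays. In linear terms array 2 was 16.7% higher for SWEET11, 7.85% higher for SUT1 and 20.2% higher for GIF1.

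Spread between the arrays depends on brightness, so each probe set was set beside rice probe sets of like brightness, after all rice probe sets were ordered by mean signal and cut into 10 groups of equal size. SWEET11, SUT1 and SWEET4 fell in the brightest group, where the SD between the arrays was 0.12 (log2). SUT1 and SWEET4 were tighter than that, and SWEET11, at 0.16, was wider. GIF1 fell in a group with an SD of 0.23 and both SWEET14 probe sets in one with an SD of 0.57, and all 3 probe sets had a smaller SD than their group. Rice probe sets of the SWEET14 group had a median difference of -0.28, dimmer on array 2, whereas the median was 0.02 in the brightest group. The median difference over the 6 probe sets was 0.17, against -0.04 over all rice probe sets above background. With 2 arrays of 1 group these values give a spread and no test.

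**Figure D3:**
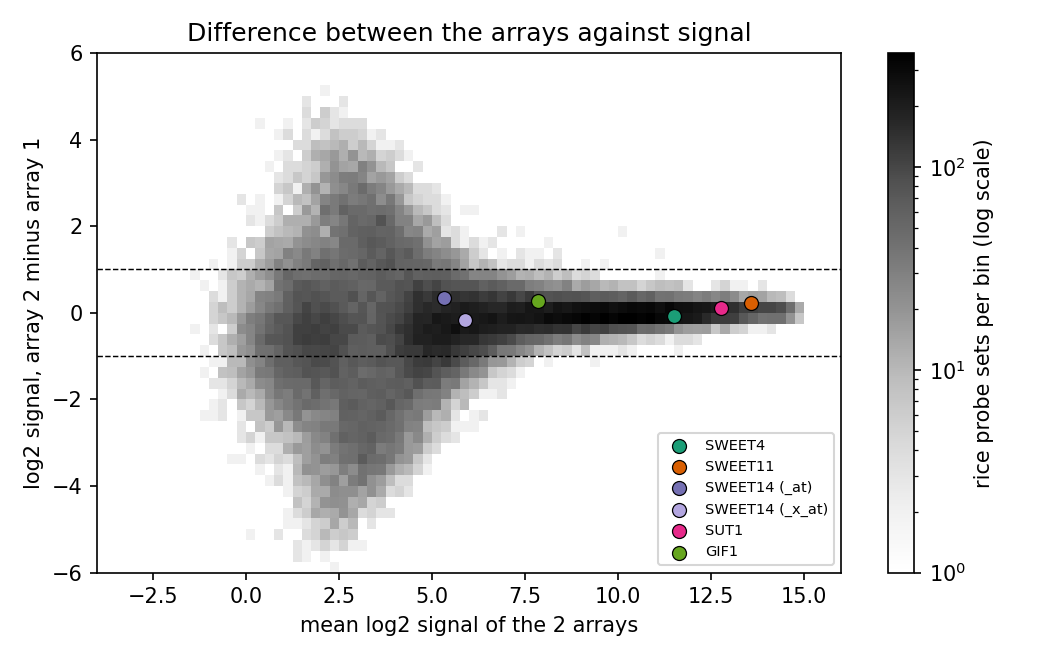
Log2 difference between the arrays, array 2 minus array 1, against mean log2 signal for 57194 rice probe sets (grey, number per bin on a log scale), with the 6 probe sets as coloured points. Dashed lines mark a 2-fold difference; the 6 points lie between -0.17 and 0.34, in the range that rice probe sets of like signal cover.

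Other genes of sugar transport and cleavage, the hexose kinases and the regulator NF-YB1 were read from lists of names. They gave 30 further genes, of which 20 (66.7%) were above background on both arrays, beside 74.1% over all genes. The 20 include NF-YB1 and all 8 hexose kinase genes read, which neither move nor split sugar. The median log2 signal of the 30 genes was 7.80, against 8.58 over all genes. Of the 20, 10 were brighter and 10 dimmer on array 2. None differed by over 2-fold between the arrays, beside 0.899% of above-background probe sets listed for 1 gene.

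Among the SWEET genes 12 were read and 6 were above background, beside 74.1% of all genes read. By the known clades of the family, the clade of SWEET11 and SWEET14, whose members carry sucrose, had 4 genes read and 2 above background, SWEET11 and SWEET15. SWEET15, known in rice to act with SWEET11 in supplying the endosperm and named here after its values were seen, read 331 and 385 on arrays 1 and 2 (8.48 ± 0.15, log2, SD, n = 2). SWEET12 was below background on both arrays. All 3 genes read in the clade of SWEET4 were above background. They were SWEET4, SWEET5 and a gene listed as both SWEET6A and SWEET6B, and the last read 104 on array 1 and 58.1 on array 2, where the brightest reporter read 98.7, so its call ends with that background. Of the clade of SWEET1 and SWEET2, 1 of 4 genes was above background in the probe set read, SWEET2A, and SWEET16 of the remaining clade was not. SWEET2B was below background in the probe set read and, at 71.9 and 64.2, above it on both arrays in its other one, of the _x_at type. SWEET13, the other blight target of the SWEET11 clade, had no probe set listed for it alone and was not analysed here. Of 21 SWEET names 6 found no match, SWEET7A to SWEET7E among them, so the clade counts cover only the genes read.

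All 4 sucrose transporter genes read were above background, beside 74.1% of all genes read. This held with the brightest reporter as background, a setting for which no share over all genes was taken. Besides SUT1, the highest signal was that of SUT2, a vacuolar membrane sucrose transporter, at 11.40 ± 0.03 (log2, SD, n = 2). SUT2 read 2656 on array 1 and 2730 on array 2 in the probe set used, but 80.0 and 44.8 in its other one, so the level of SUT2 depends on the probe set. SUT4 and SUT5 were above background on both arrays, and SUT3 found no match.

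Of 5 cell wall invertase genes read, GIF1 and CIN7 were above background and CIN1, CIN3 and CIN4 were below it on both arrays. Of all genes read, 74.1% were above it on both. CIN5 and CIN6 had no probe set listed for them alone, and CIN8 and CIN9 found no match, so these were not read. CIN7 read 144 on array 1 and 116 on array 2 (7.01 ± 0.22, log2, SD, n = 2). CIN3 lies next to GIF1 on chromosome 4, with 0 annotated genes between them. CIN3, singled out for that position after its values were seen, read 42.9 and 23.2, below the background of each array, while GIF1 was above it on both.

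All 3 neutral invertase genes read were above background, with CINV1 at 12.24 ± 0.01 and NIN3 at 10.35 ± 0.06 (log2, SD, n = 2). No vacuolar invertase name found a match. All 8 hexose kinase genes read, whose enzymes phosphorylate glucose or fructose, were above background, and 7 were with the brightest reporter or a signal of 100 as background. The call lost there was that of the gene listed as HXK4 alone, at 61.9 on array 1 and 47.3 on array 2. Over all genes read the share above background was 74.1%. The hexokinase gene listed as HXK2 and HXK6 stood at 12.41 ± 0.06 and that listed as HXK2 and HXK3 at 11.32 ± 0.18 (log2, SD, n = 2). The value for HXK2 and HXK6 comes from an _s_at probe set, whose probes can match more than 1 transcript. The gene listed as HXK2 and HXK3 read 2338 on array 1 and 2795 on array 2 in the probe set used. It read 1128 and 1092 in its other one. Of the monosaccharide transporter names only MST3 and MST5 were matched, and both genes were below background on both arrays, MST3 at 28.5 and 27.9 and MST5 at 17.5 and 0.919. NF-YB1 is a factor of aleurone and early endosperm, reported in rice to bind sucrose transporter promoters. It read 2546 on array 1 and 3100 on array 2 (11.46 ± 0.20, log2, SD, n = 2). No name for the plastid sugar phosphate carriers found a match, and these genes were not analysed here.

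**Figure D4:**
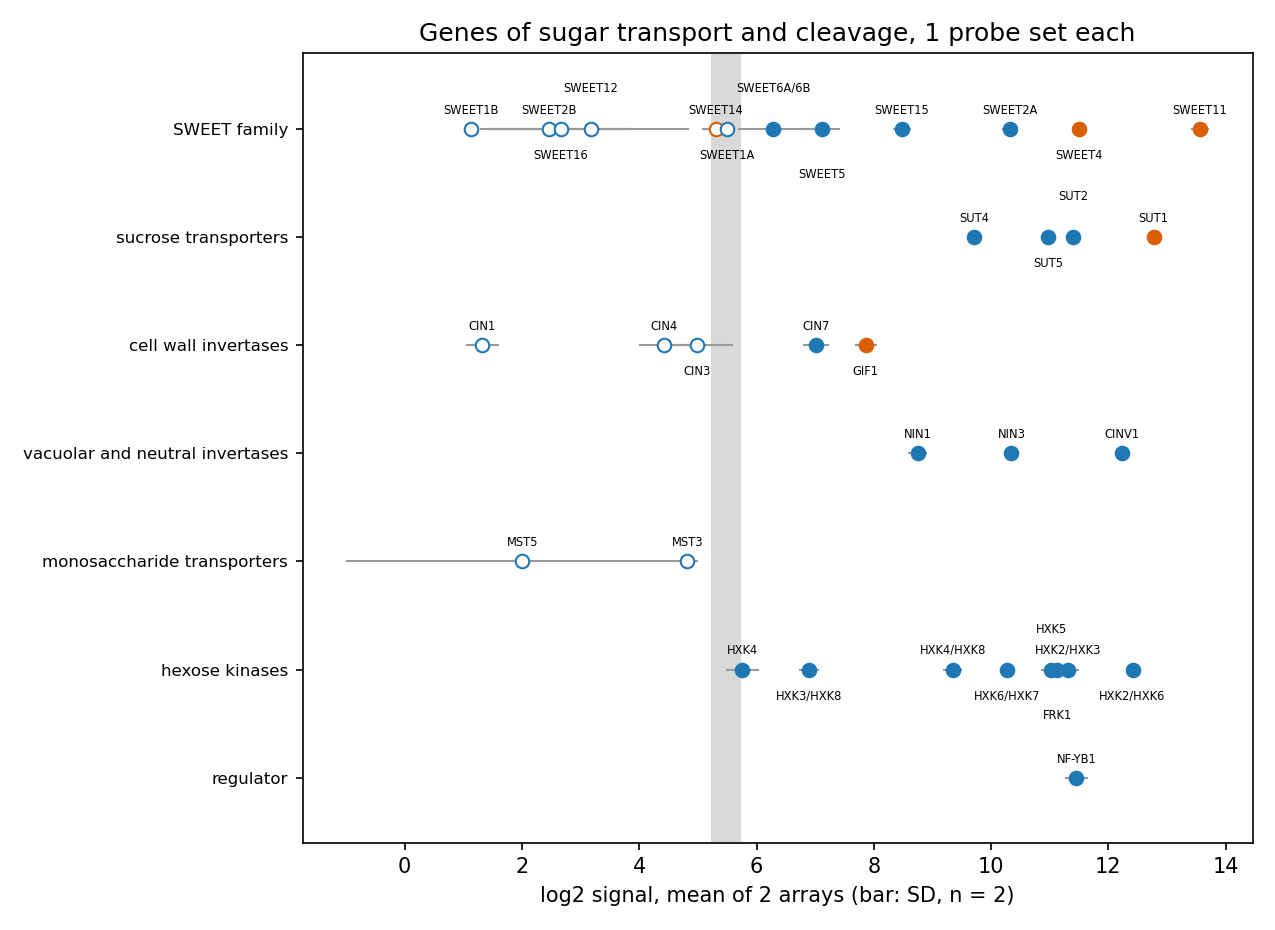
Mean log2 signal of 35 genes of the sugar lists, hexose kinases and NF-YB1 included, by list. Each was read through 1 probe set, with the SD of 2 arrays as a bar. Filled points were above background on both arrays, orange marks SWEET4, SWEET11, SWEET14, SUT1 and GIF1, and the grey band spans the backgrounds of the arrays (5.24 to 5.72). All sucrose transporter, neutral invertase and hexose kinase genes are filled. The SWEET and cell wall invertase genes lie on both sides of the band, with SWEET14 and SWEET1A inside it.

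Several of these genes are also active outside the endosperm. SWEET11, SUT1 and GIF1 are known in rice from maternal tissues of the grain, such as the vascular strand and nucellus. Markers of other tissues are therefore given beside them. Of 4 maternal and embryo markers 2 were above background, MADS29, known from the nucellus and seed coat, at signals of 305 and 339 and the ovule gene MADS21 at 144 and 117. MADS13 was above background on array 2 alone, and the meristem gene OSH1 on neither array. The summed signal of the list was 496 on array 1 and 510 on array 2, with MADS29 higher and MADS21 lower on array 2. Of 7 green tissue genes 5 were above background in the probe set read, and 6 in at least 1 probe set. Their summed signal was 3481 on array 1 and 3691 on array 2, most of it from the chlorophyll-binding protein gene CAB2R, which read 2747 and 3000 in that probe set and 672 and 571 in its other one. The endosperm regulators NF-YB1, MADS6 and RSR1 were above background on both arrays. MADS6, at 69.1 on array 1 and 56.9 on array 2, was no longer above it with the brightest reporter as background. Beside these marker counts, 74.1% of all genes read were above background on both arrays. The part of other tissue in the signals of the 5 genes was not tested.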

How the data were processed

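Total RNA of 2 endosperm samples was amplified and biotin-labelled with a kit that primes at the 3′ end and hybridized to Affymetrix rice arrays, per the labels' protocols. The deposited values are linear signal intensities for 57381 probe sets on each array. They were made with MAS5, per the submitters' processing notes; which version and settings were used is not given in the sources used here. With 2% of values trimmed at each end, the mean signal of either array was 500.1, so each had been scaled on its own. The number of arrays limits the precision.

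Values were used as deposited, as log2, without an offset. The platform's probe annotation of 2016 lists 22436 rice probe sets with 1 gene, 95 probe sets with several genes and no gene for 34663 rice probe sets. Names came from the gene table of assembly ASM3414082v1, in which all 17905 genes were found; its coordinates were used only for which genes neighbour each other. Genes with several probe sets were read through 1, by suffix (_at, _a_at, _s_at, _x_at) and then the highest mean. The genes and lists were chosen with earlier results of these data known, and the SWEET clades were taken from general knowledge after the values were seen. Named with values are all probe sets of the 5 genes and the 2 brightest genes of each sugar list, hexose kinases included. The same holds for any gene of these lists above background on both arrays and over 2-fold apart (there was none). SWEET15, CIN3, some second probe sets that disagree and genes whose call was lost were chosen after their values were seen. With 1 group no pattern across conditions exists, so no gene is named as similar to another.

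Alternatives were other backgrounds (the brightest reporter, a signal of 100), quantile normalization, median centring, an offset of 16, other probe set choices and each array alone. The code for 2-fold calls and spread was run on data simulated with the spread of these arrays. Probe sets given a change there lay well above background, so calls near background were not checked. Python 3.11.15, pandas 2.3.3, NumPy 2.4.6, SciPy 1.17.1 and matplotlib 3.10.9 were used.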

Additional observations from a re-analysis of the deposited data

How the results depend on the processing

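Levels from 1 array alone are left out here, since with 2 arrays they move by a fixed part of the SD. Of 76 other values recomputed for the 5 genes and the sugar lists, 70 moved by less than the SD between the arrays or, for counts, stayed within 1.5 times, and the other 6 all concern SWEET14. Its level of 5.31 was 5.80 with an offset of 16, 5.89 in its brightest probe set and 5.60 as the mean of both, and the second probe set went from 5.89 to 6.24 with the offset, which by construction raises dim values. After quantile normalization the difference between the arrays was 0.65 for the first probe set and 0.0674 for the second, which turned its direction from -0.17; the cause was not tested. Each array alone gave 5 or 6 of the 6 probe sets and 4 or 5 of the 5 genes above background, SWEET14 being the gene that array 2 adds. With the brightest reporter or a signal of 100 as background, 4 probe sets and the same count of 4 genes were. Shares over all genes were not taken at these backgrounds or on 1 array alone, so these counts show only how the calls move. The SWEET family count of 6 was 5 under either of these backgrounds, 6 on array 1 alone, and 8 on array 2 alone or with brightest probe sets. The count of 8 hexose kinase genes was 7 under either background. The counts of the other sugar lists did not move. For the marker lists, checked after the data were seen, the count ranged from 2 to 3 for maternal and embryo genes, 5 to 7 for green tissue genes and 2 to 3 for endosperm regulators. Signal close to background limits SWEET14 alone among the 5 genes. No paired analysis was possible because there is 1 group.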
